A study of Homo sapiens with 4 samples.

Results

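The IL1 family and the colony stimulating factors were followed in mRNA-seq of SKOV3 cells through 10 genes. These were the cytokines IL1A, IL1B, IL18 and IL33, the receptor antagonist IL1RN, the receptor chains IL1R1 and IL1RAP, and the growth factors CSF1, CSF2 and CSF3. They were taken by symbol, 10 of the 19475 symbols in the deposited table, and each symbol was represented by its transcript with the highest mean FPKM over the 4 libraries. FPKM is the number of sequenced tags on a transcript, scaled to its length and to the tags of the library. SKOV3 is an established human ovarian cancer cell line with high ERBB2. The labels give 2 libraries of SKOV3 cells in 2D culture on a tissue culture plate (TCP), placed at day 0, and 2 libraries of SKOV3 tumor spheroids on a plate coated with polymer X, placed at day 8.

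The groups differ both in substrate and in time of culture, and the parts of these cannot be told apart. The methods of the study name fetal bovine serum for maintaining the cells and serum replacement for spheroids, while the labels carry 1 protocol with serum replacement for all 4 libraries, so it is uncertain which medium the TCP cells were in. Nothing in the labels says that the libraries of a group came from separate cultures, so p-values measure only the spread between these libraries, which may be technical. The command in the table's header also lists libraries from other culture surfaces, and these were not analysed here.

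IL1A and IL1B are agonists of the receptor IL1R1, which signals together with the accessory chain IL1RAP through MYD88 and IRAK kinases to NF-kappaB, and IL1RN occupies IL1R1 without signalling. IL1B and IL18 are made as precursors that caspase-1 cleaves in inflammasomes, whereas IL1A and IL33 are active without that step and can be held in the nucleus. CSF1, CSF2 and CSF3 support macrophages, granulocytes and their precursors, and ovarian tumors are among the tissues in which CSF1 and its receptor have been studied.

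The libraries held 38404000 and 44917000 tags on TCP and 40030000 and 40684000 tags on polymer X, as read from the smallest steps between values. Of 12 epithelial and ovarian markers listed for SKOV3, 8 passed the filter on low values, which kept genes that reached an FPKM of 1 in 2 or more libraries. A call needed an adjusted p under 0.05 in limma with Benjamini-Hochberg adjustment over 11964 genes, and a log2 fold change of at least 1 in either direction on the scale of log2(FPKM + 1). Of these 8, 5 were called higher on polymer X and 3 were not called, where 10.7% of all tested genes were called higher. ERBB2 had an FPKM of 198 and 206 on TCP and 913 and 860.4 on polymer X, which is high in both groups. The epithelial keratins KRT8, KRT18 and KRT7 were not called, with 262 and 269 on TCP and 146 and 143 on polymer X for KRT8, 123 and 121 against 89.3 and 89.6 for KRT18, and 8.33 and 7.57 against 4.57 and 4.04 for KRT7. The markers MUC16, WT1, CDH1 and KRT19 were under an FPKM of 1 in every library. The other markers called higher were CLDN4, CLDN3, PAX8 and EPCAM, of which CLDN3 and EPCAM passed the filter through polymer X only. EPCAM had an FPKM of 0.168 and 0.104 on TCP and 1.39 and 1.33 on polymer X, and fell short of the fold minimum with quantile normalization (log2 fold change of 0.47).

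Of the 10 genes, 9 were tested, 6 were called higher on polymer X, 2 were called lower, and IL1RAP was not called. Over all tested genes, 10.7% were called higher, as above, and 9.45% were called lower. All 9 tested genes had an adjusted p under 0.05, as did 81% of all tested genes, and in all 9 the libraries of the groups did not overlap, as in 90.4% of all tested genes. IL1RN and IL33 passed the filter through the polymer X libraries only, so they had to differ and the count gives no support of its own. The same limit holds for CSF2, which needed TCP to pass, since only 1 polymer X library reached an FPKM of 1. On TCP the order of FPKM was CSF1, IL18, CSF2, IL1RAP, IL1B, IL1A, IL1R1, CSF3, IL33 and IL1RN, where the ranges of IL1RAP and IL1B, of IL1B and IL1A, and of CSF3 and IL33 overlapped. On polymer X the order was CSF1, IL1A, IL1B, IL18, IL1R1, IL1RAP, IL33, IL1RN, CSF2 and CSF3, where only IL1R1 and IL1RAP overlapped among neighbours.

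**Figure D1:**
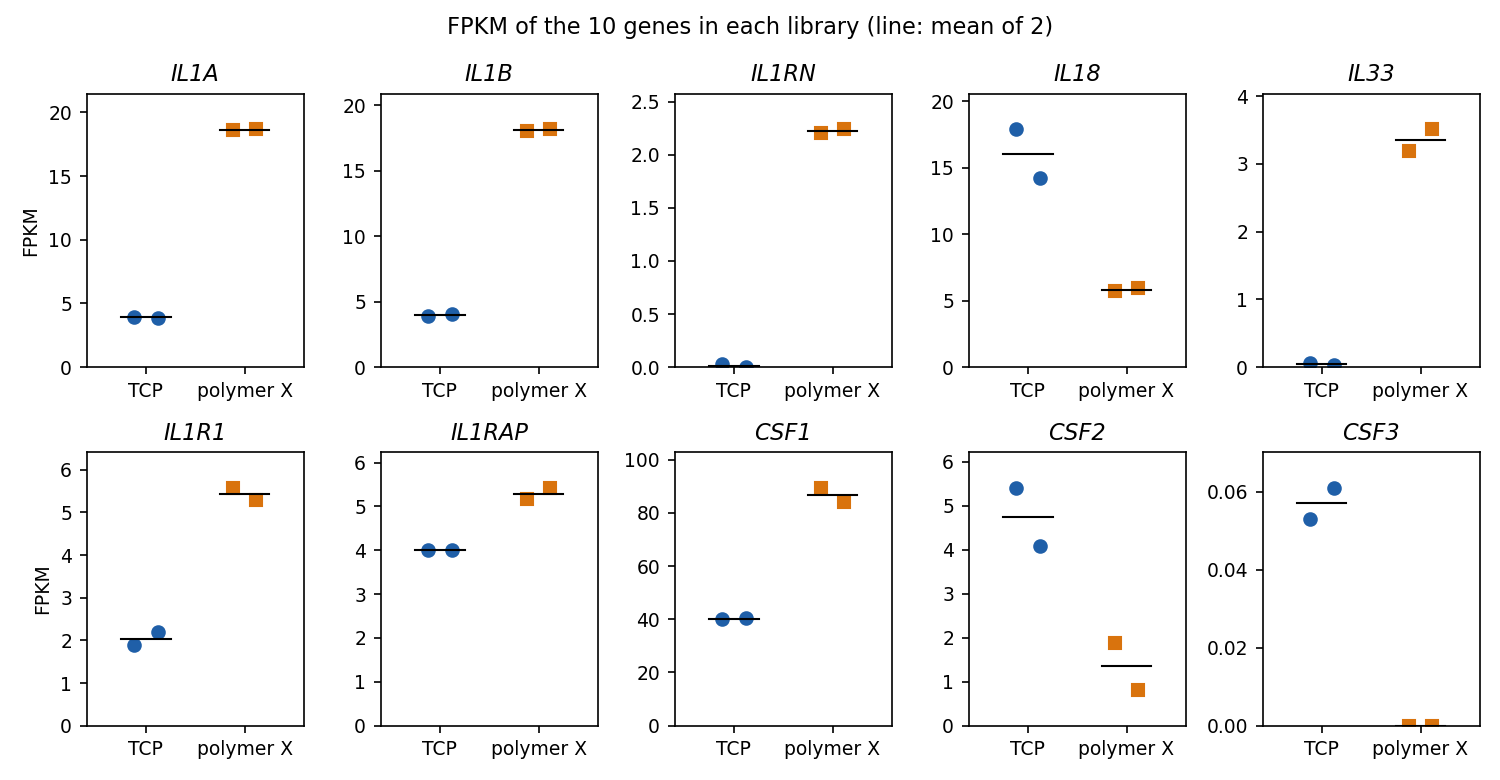
FPKM of each of the 10 genes (vertical axis, linear from 0, a separate scale for each gene) in the 2 TCP libraries (circles) and the 2 polymer X libraries (squares), with the mean of each group as a line. IL1A, IL1B, IL1RN, IL33, IL1R1 and CSF1 lie higher on polymer X, IL18 and CSF2 lie lower, IL1RAP differs less, and CSF3 is at 0.061 or less throughout.

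IL1A and IL1B rose together on polymer X, by close to the same fold. IL1A, the cytokine that also acts from the cell surface and from dying cells, had an FPKM of 3.96 and 3.88 on TCP and 18.6 and 18.7 on polymer X (NM_000575, hg19 chr2:113531492-113542975, minus strand). Both polymer X libraries lay 4.76-fold above TCP on average, with a log2 fold change of 2.00 ± 0.06 (SE) and an adjusted p of 6.7e-09 (limma, Benjamini-Hochberg). IL1B, the main secreted form of IL1, had an FPKM of 3.94 and 4.04 on TCP and 18.0 and 18.2 on polymer X (NM_000576, hg19 chr2:113587337-113594356, minus strand). The ratio of its means was 4.54, with a log2 fold change of 1.94 ± 0.06 (SE) and an adjusted p of 7.9e-09 (limma, Benjamini-Hochberg). The 95% confidence intervals of both changes shared most of their width, from 1.86 to 2.14 for IL1A and from 1.80 to 2.08 for IL1B. The ratio of IL1A to IL1B in FPKM was 1.01 and 0.962 on TCP and 1.03 and 1.03 on polymer X, so the balance between the agonists moved little while their level rose.

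Promoter sequence was taken from a table of RefSeq windows on GRCh38.p14, from 250 bases before to 50 bases after each start, which gave 14 windows for 7 of the 10 genes. Windows for IL18, CSF1 and CSF3 were not used here. Each start is the one given with the RefSeq windows. For IL1A and IL1R1 it was not shown to be the start of the reported transcript. Each window was searched on both strands for TGANTCA, the AP-1 motif, for TTCNNNGAA, the STAT motif, and for the NF-kappaB consensus. AP-1 letters were found in 3 of the 14 windows (2 genes), STAT letters in 4 (4 genes) and the NF-kappaB consensus in 0. Among all 35116 RefSeq windows of that length, 7.71% held the AP-1 motif, 7.66% the STAT motif and 11.3% the NF-kappaB consensus. The windows of a gene can overlap, as the 2 of IL1A do, and a match is a description of letters and not a binding site. The windows of IL1A and IL1B are shown because these genes rose together, with motif matches in capitals. For IL1A (chr2:112784444-112784743, minus strand) the capitals mark AP-1 letters that begin at positions -12 and 39 relative to the start. For IL1B (chr2:112836730-112837029, minus strand) they mark STAT letters at -180.
IL1A: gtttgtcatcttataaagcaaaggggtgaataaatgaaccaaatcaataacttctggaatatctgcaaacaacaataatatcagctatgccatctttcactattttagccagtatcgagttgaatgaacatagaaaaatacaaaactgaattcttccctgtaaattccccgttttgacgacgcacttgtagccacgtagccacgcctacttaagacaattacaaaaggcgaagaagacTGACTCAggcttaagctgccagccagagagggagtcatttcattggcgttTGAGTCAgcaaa
IL1B: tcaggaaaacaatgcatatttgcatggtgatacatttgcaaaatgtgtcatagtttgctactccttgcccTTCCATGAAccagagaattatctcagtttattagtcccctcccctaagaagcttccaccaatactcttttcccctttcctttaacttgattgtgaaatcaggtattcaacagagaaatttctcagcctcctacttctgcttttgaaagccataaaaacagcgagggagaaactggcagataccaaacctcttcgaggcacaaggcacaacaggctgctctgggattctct

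IL1RN, the antagonist that competes with IL1A and IL1B for the receptor, went from almost no tags to a low level. Its FPKM was 0.030 and 0 on TCP and 2.21 and 2.24 on polymer X (NM_000577, hg19 chr2:113875470-113891593, plus strand), which are 2 and 0 tags against 154 and 159 tags. The ratio of tags per library tag was 162, with a 95% counting interval of 44.4 to 1340, and such intervals cover counting error only. On the log2(FPKM + 1) scale, which understates changes of low genes, the change was 1.67 ± 0.08 (SE) with an adjusted p of 1.1e-07 (limma, Benjamini-Hochberg). All 5 IL1RN transcripts, 4 that begin at the upstream start and NM_173842 that begins at 113885138, were near 0 on TCP and held 148 to 169 tags in each polymer X library, largely the same tags. In each polymer X library IL1RN remained a small part of its agonists. It came to 6.02% and 6.08% of the summed FPKM of IL1A and IL1B there, against 0.380% and 0% on TCP. That sum was 7.89 and 7.92 on TCP and 36.6 and 36.9 on polymer X. The upstream promoter window of IL1RN (GRCh38.p14 chr2:113117721-113118020, plus strand) is shown as the second gene with AP-1 letters, in capitals at -223.
IL1RN: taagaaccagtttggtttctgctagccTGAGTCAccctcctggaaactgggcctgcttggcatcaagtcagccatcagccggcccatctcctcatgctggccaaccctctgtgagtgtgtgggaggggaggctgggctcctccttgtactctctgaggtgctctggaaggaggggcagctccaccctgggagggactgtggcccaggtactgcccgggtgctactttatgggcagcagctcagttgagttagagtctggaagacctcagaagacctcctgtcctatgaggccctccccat

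IL33, a nuclear cytokine released from damaged cells that signals through IL1RL1 and IL1RAP, also went from a few tags to a low level. Its FPKM was 0.060 and 0.034 on TCP and 3.19 and 3.51 on polymer X (NM_001353802, hg19 chr9:6248481-6257983, plus strand), from 6 and 4 tags against 332 and 372 tags. Both polymer X libraries were far above both TCP libraries, and the ratio of tags per library tag was 72.7 with a 95% counting interval of 39.3 to 152. The log2 fold change was 2.05 ± 0.08 (SE), with an adjusted p of 3.3e-08 (limma, Benjamini-Hochberg). All 9 IL33 transcripts showed the same picture, with ratios of mean FPKM from 61.6 to 73.5. The reported transcript NM_001353802 begins further along the gene, at hg19 6248481, and no window at that start was used. The IL33 window with STAT letters (GRCh38.p14 chr9:6215557-6215856, plus strand) is shown for comparison with IL1B and CSF2, with the capitals beginning at 16.
IL33: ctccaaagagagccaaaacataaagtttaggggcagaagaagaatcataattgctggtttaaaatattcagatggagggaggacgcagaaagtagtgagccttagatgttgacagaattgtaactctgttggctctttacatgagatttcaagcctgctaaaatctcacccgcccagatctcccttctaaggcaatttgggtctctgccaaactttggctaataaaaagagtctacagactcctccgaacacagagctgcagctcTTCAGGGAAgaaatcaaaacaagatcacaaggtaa

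IL18 moved the other way. This interferon-gamma inducing cytokine had an FPKM of 17.9 and 14.3 on TCP and 5.71 and 5.93 on polymer X (NM_001243211, hg19 chr11:112013974-112034840, minus strand). The TCP libraries differed from each other more than the polymer X libraries did, but both were above both polymer X libraries, 2.76-fold on average. The log2 fold change was -1.32 ± 0.10 (SE), with an adjusted p of 1.3e-06 (limma, Benjamini-Hochberg). Relative to IL1B, IL18 went from 4.55 and 3.53 times its FPKM on TCP to 0.317 and 0.326 times on polymer X, so IL18 had the higher FPKM of these cytokines on TCP and IL1B on polymer X. These are levels in bulk RNA, in which fewer cells of a type and less RNA per cell cannot be told apart.

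**Figure D2:**
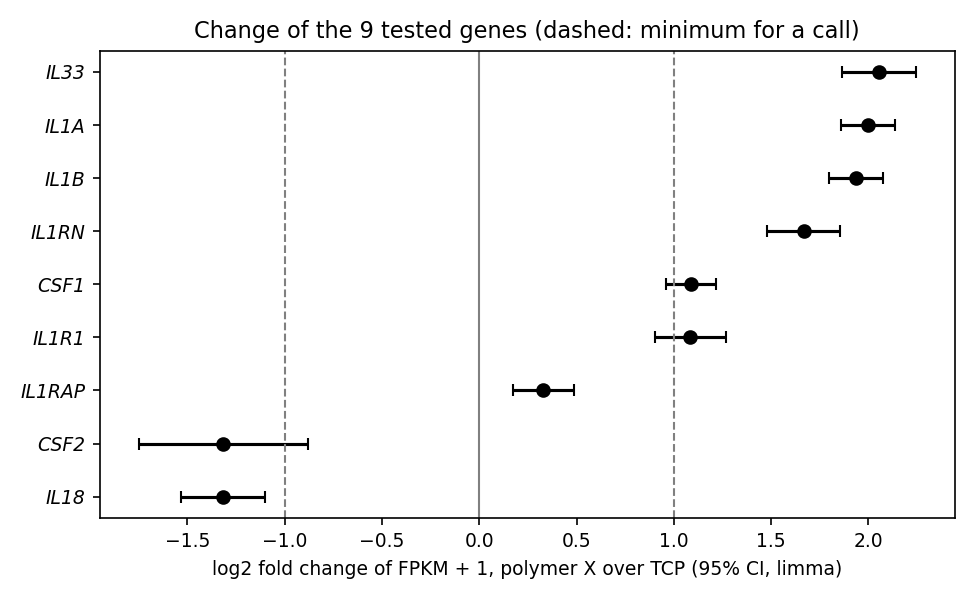
Log2 fold change of FPKM + 1, polymer X over TCP (horizontal axis), for the 9 tested genes, with 95% confidence intervals from limma over 2 libraries per group. IL33, IL1A, IL1B, IL1RN, CSF1 and IL1R1 lie right of the dashed line at 1, IL18 and CSF2 lie left of the one at -1, and IL1RAP lies between at 0.33.

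IL1A, IL1B and IL1RN mark the ends of a ligand cluster on chromosome 2 that spans hg19 chr2:113531492-113891593 and holds 9 genes, with IL37, IL36G, IL36A, IL36B, IL36RN and IL1F10 between them. No other symbol of the table lay inside the cluster, and no other symbol overlapped any of the 10 genes, so no other listed gene shared their tags by position. Of the 6 other ligands, 2 were tested and both were called higher, against 10.7% of all tested genes, but both passed the filter through polymer X only. IL36RN, the antagonist of the IL36 receptor, had an FPKM of 0.039 and 0.041 on TCP and 2.49 and 2.86 on polymer X. IL36B, an agonist of that receptor, had 0 and 0.021 on TCP and 1.12 and 1.01 on polymer X, and its log2 fold change of 1.03 was under 1 with quantile normalization (0.58) and without polymer X replicate 1 (0.99). The antagonists at the far end, IL36RN and IL1RN, were thus at similar low levels on polymer X. IL36G had 1 and 0 tags on TCP and 26 and 12 on polymer X, and was not tested. IL37 had an FPKM of 0.136 and 0.466 on TCP and 0.262 and 0.418 on polymer X, where the groups overlapped. IL36A had 0 tags in every library, and IL1F10 had at most 2.

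**Figure D3:**
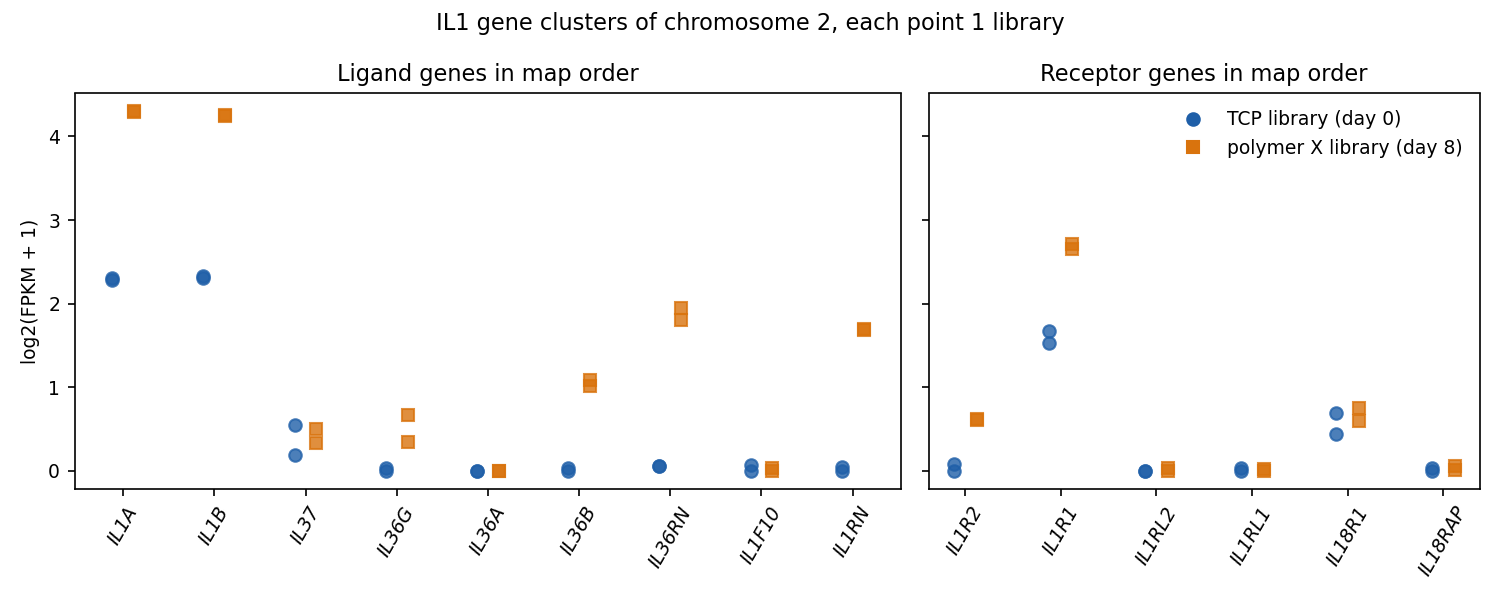
Log2(FPKM + 1) (vertical axis) of the genes of the IL1 ligand and receptor clusters of chromosome 2, in map order with no distances drawn, in the 2 TCP libraries (circles) and the 2 polymer X libraries (squares). IL1A, IL1B, IL36B, IL36RN and IL1RN are higher on polymer X in the ligand cluster, with IL37, IL36A and IL1F10 low in both groups. IL36G, not tested, is also higher on polymer X (FPKM of 0.59 and 0.268, against 0.024 and 0 on TCP). IL1R1 is the highest gene of the receptor cluster in both groups.

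The signalling receptor IL1R1 rose with its ligands. It had an FPKM of 1.88 and 2.20 on TCP and 5.58 and 5.30 on polymer X (NM_001320985, hg19 chr2:102770401-102796334, plus strand). Both polymer X libraries were above both TCP libraries, 2.67-fold on average. The log2 fold change was 1.08 ± 0.08 (SE), with an adjusted p of 1.5e-06 (limma, Benjamini-Hochberg), and it was 0.92, under the fold minimum, with quantile normalization. The 10 IL1R1 transcripts had ratios of mean FPKM between 1.64 and 2.67, the lowest in NM_001320986, whose end differs from that of the others.

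IL1RAP, the chain that IL1R1 and the IL33 receptor share, changed less. It had an FPKM of 4.014 and 4.002 on TCP and 5.16 and 5.43 on polymer X (NM_001167929, hg19 chr3:190231840-190369308, plus strand). The groups did not overlap, and the log2 fold change of 0.33 ± 0.07 (SE) had an adjusted p of 0.0017 (limma, Benjamini-Hochberg) but was under the fold minimum. With the transcripts summed it was 0.16, with an adjusted p of 0.0581 (limma, Benjamini-Hochberg), the highest of 5.0e-04 to 0.0581 over the settings. The transcripts of IL1RAP did not move alike. The 3 that end at 190369308, among them NM_002182 for the membrane chain, had ratios of mean FPKM of 1.32 on polymer X over TCP. The 2 that end at 190348073, among them NM_134470 for a soluble form, had ratios of 0.877 and 0.881, and the transcript that ends at 190374986 had 0.949. In each library the FPKM of NM_002182 over that of NM_134470 was 1.11 and 1.00 on TCP and 1.59 and 1.58 on polymer X, higher in both polymer X libraries. Transcripts of a gene share tags and these differences were not tested.

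**Figure D4:**
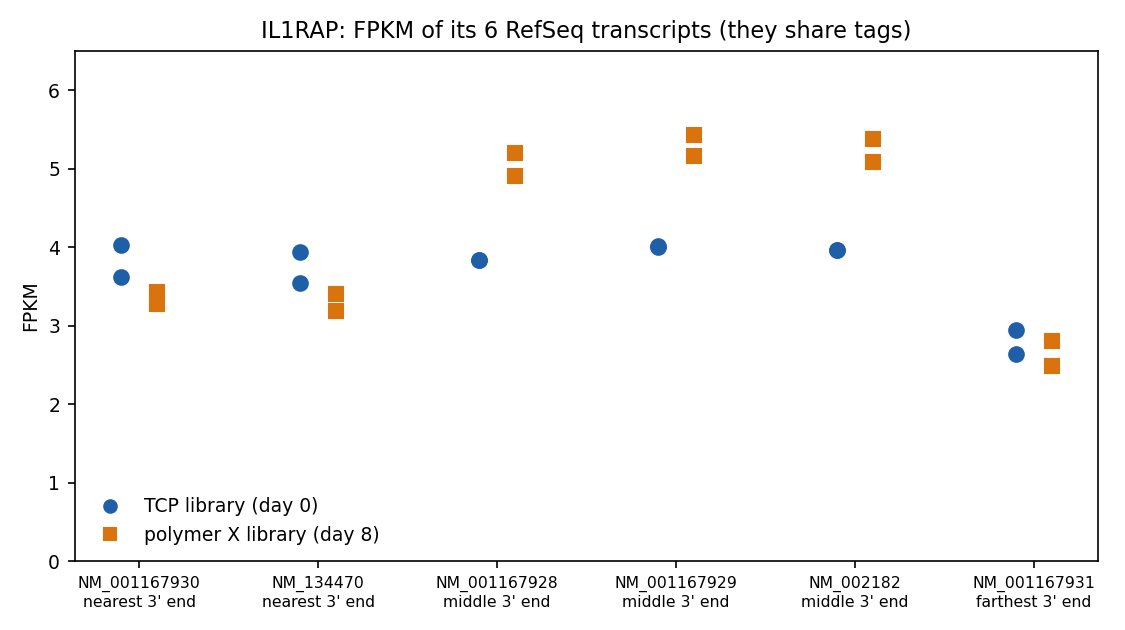
FPKM (vertical axis, from 0) of the 6 IL1RAP transcripts in the 2 TCP libraries (circles) and the 2 polymer X libraries (squares), grouped by where the transcript ends along the gene. The 3 transcripts with the middle 3' end are higher on polymer X, with ratios of mean FPKM of 1.32, the 2 with the nearest 3' end are lower, with ratios of 0.877 and 0.881, and the groups overlap for the 1 with the farthest 3' end (0.949).

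Of 9 other receptors, decoys and binding proteins of the family, 2 were tested and neither was called, though both had an adjusted p under 0.05 (limma, Benjamini-Hochberg), as did 81% of all tested genes, of which 10.7% were called higher and 9.45% lower. SIGIRR, a receptor that dampens IL1 signalling, had an FPKM of 6.48 and 5.61 on TCP and 10.2 and 9.82 on polymer X, with a log2 fold change of 0.65. IL18BP, which binds and blocks IL18, had 2.72 and 2.87 on TCP and 3.89 and 4.54 on polymer X, with a log2 fold change of 0.46. The decoy IL1R2, next to IL1R1 on the map, had 0 and 3 tags on TCP and 25 and 26 on polymer X, too low to be tested. The specific receptor chains for IL33 and for IL36 were close to absent. IL1RL1 had 2 and 0 tags on TCP and 1 and 0 on polymer X, and IL1RL2 had 2 tags in polymer X replicate 2 and 0 elsewhere. For IL18, the chain IL18R1 had an FPKM of 0.354 and 0.618 on TCP and 0.679 and 0.512 on polymer X, with overlapping groups, and the accessory chain IL18RAP had at most 4 tags.

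CSF1, the growth factor of the macrophage lineage, was the most abundant of the 10 genes in both groups and rose further on polymer X. Its FPKM was 40.1 and 40.4 on TCP and 89.5 and 84.0 on polymer X (NM_172211, hg19 chr1:110453233-110473616, plus strand). Both polymer X libraries were above both TCP libraries, 2.16-fold on average, with a log2 fold change of 1.09 ± 0.06 (SE) and an adjusted p of 1.4e-07 (limma, Benjamini-Hochberg). The 4 CSF1 transcripts, which encode secreted and membrane-bound forms, had ratios of mean FPKM between 1.96 and 2.18.

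CSF2, also known as GM-CSF, was lower on polymer X. Its FPKM was 5.42 and 4.09 on TCP and 1.89 and 0.820 on polymer X (NM_000758, hg19 chr5:131409485-131411863, plus strand), from 162 and 143 tags against 59 and 26 tags. The polymer X libraries differed from each other by more than 2-fold, and both were below both TCP libraries, 3.50-fold on average. CSF2 needed TCP to pass the filter, since only 1 polymer X library reached an FPKM of 1. The log2 fold change was -1.32 ± 0.19 (SE), the widest error of the 9 tested genes, with an adjusted p of 1.5e-04 (limma, Benjamini-Hochberg). The call was lost without polymer X replicate 2, where the log2 fold change was -0.98, and with no filter on low values, where the adjusted p was 0.0596 (limma, Benjamini-Hochberg), the highest of 4.6e-14 to 0.0596 over the settings. The promoter window of CSF2 (GRCh38.p14 chr5:132073539-132073838, plus strand) is shown as the window of a gene that fell with STAT letters, in capitals at -190, the same motif as in IL1B, IL33 and a window of IL1R1, which rose.
CSF2: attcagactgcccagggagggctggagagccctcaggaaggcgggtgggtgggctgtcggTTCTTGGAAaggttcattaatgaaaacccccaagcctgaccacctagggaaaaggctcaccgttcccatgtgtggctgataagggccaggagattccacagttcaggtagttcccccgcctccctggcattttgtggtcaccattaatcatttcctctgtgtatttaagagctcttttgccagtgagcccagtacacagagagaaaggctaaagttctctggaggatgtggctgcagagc

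CSF3, also known as G-CSF, was close to absent, with 3 and 4 tags on TCP and 0 and 0 on polymer X, and was not tested. A count of 0 tags allows up to 3 tags in a library, and no fold is given. In FPKM, CSF1 over CSF2 was 7.40 and 9.88 on TCP and 47.3 and 102 on polymer X, so that the growth factors moved apart. None of the 9 listed receptors and related ligands of the colony stimulating factors was tested, and 7 were at 3 tags or fewer in every library. The receptor of CSF1, CSF1R, had an FPKM of at most 0.107, from 17 tags.

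Leukocytes are a main source of several of these cytokines, so 14 leukocyte markers were set beside them. Of these, 12 were under an FPKM of 1 in every library and 4 were at 0 throughout, among them CD3E of T cells and MS4A1 of B cells. The 0 of AIF1 is uncertain, since its row lies on an alternate copy of a region of chromosome 6. The other 2 were called higher on polymer X, against 10.7% of all tested genes. CD68, a lysosomal protein that is not limited to leukocytes, was the most abundant, with an FPKM of 17.0 and 17.4 on TCP and 42.3 and 44.9 on polymer X. LAPTM5 had 0.163 and 0.040 on TCP and 2.85 and 3.77 on polymer X, and passed the filter through polymer X only. PTPRC, which encodes the leukocyte antigen CD45, had 1 and 0 tags on TCP and 92 and 106 tags on polymer X, an FPKM of 0.468 and 0.530 there. The macrophage markers CD14 and ITGAM were at an FPKM of at most 0.178 and 0.063. The summed FPKM of the 14 markers was 17.4 and 17.6 on TCP and 46.4 and 49.9 on polymer X, and without CD68 it was 0.393 and 0.209 on TCP and 4.06 and 4.95 on polymer X. Their part in the rise of IL1A, IL1B, IL1RN, IL33 and CSF1 was not tested.

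CASP1, the caspase that cleaves IL1B and IL18, was almost undetected, with 2 tags in polymer X replicate 2 and 0 in the other libraries. Of 21 genes of inflammasomes and cytokine processing, 12 were tested, 1 was called higher and 0 lower, with a median log2 fold change of 0.41 against -0.06 over all tested genes. All 12 had an adjusted p under 0.05 (limma, Benjamini-Hochberg), as did 81% of all tested genes, of which 10.7% were called higher and 9.45% lower. The called gene was MEFV, which encodes the inflammasome sensor pyrin, with an FPKM of 0.105 and 0.153 on TCP and 4.64 and 4.78 on polymer X, and it passed the filter through polymer X only. The adaptor PYCARD had 6 and 14 tags on TCP and 3 and 1 on polymer X, and the sensor NLRP3 had 63 and 37 tags on TCP and 2 and 5 on polymer X, both too low to be tested. GSDMD, whose product forms the pores through which IL1B leaves cells, had an FPKM of 27.2 and 28.0 on TCP and 39.7 and 37.1 on polymer X. CASP8 of the same list had an FPKM of 17.7 and 17.6 on TCP and 26.1 and 23.8 on polymer X. CASP4 had 5.73 and 5.84 on TCP and 8.58 and 8.12 on polymer X. CAPN2 went the other way, with 86.5 and 86.2 on TCP and 59.9 and 62.1 on polymer X, as did CAPNS1. CASP1, PYCARD, NLRP3, GSDMD, CASP8, CASP4, CAPN2 and CAPNS1 were picked after their values were seen.

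Of 20 genes that signal downstream of IL1R1, 18 were tested, 0 were called higher and 1 was called lower, with a median log2 fold change of 0.18, and 15 of the 18 had an adjusted p under 0.05 (limma, Benjamini-Hochberg), against the same 81%, 10.7% and 9.45% over all tested genes. The called gene was IRAK1, a kinase recruited to the activated receptor, with an FPKM of 88.9 and 90.1 on TCP and 24.4 and 24.8 on polymer X. Its log2 fold change was -1.82 ± 0.05 (SE), with an adjusted p of 5.0e-09 (limma, Benjamini-Hochberg). The receptor and the kinase thus moved in opposite directions between the same libraries.

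Genes known to respond to IL1 moved both ways while IL1A, IL1B and IL1R1 rose. Of 30 listed, 27 were tested, 6 were called higher and 8 lower, with a median log2 fold change of 0.19, where 10.7% of all tested genes were called higher and 9.45% lower. The largest rise was in MMP1, a collagenase, with an FPKM of 22.6 and 20.02 on TCP and 899 and 888 on polymer X (log2 fold change 5.33). On the log2(FPKM + 1) scale LCN2, an iron-binding acute phase protein (3.64), and complement C3 (2.81) followed. The acute phase gene SAA1 (2.55) and the adhesion molecule ICAM1 (2.37) came next, and SAA2 was the sixth. Ratios of means placed ICAM1 (15.5) above C3 (7.34) and SAA1 (6.97). ICAM1 and SAA2 passed the filter through polymer X only. LCN2 also needed polymer X to pass, since only 1 TCP library reached an FPKM of 1 (0.997 and 1.252 on TCP). The largest fall was in IL6, with an FPKM of 67.3 and 65.3 on TCP and 6.77 and 5.90 on polymer X (log2 fold change -3.20). On the log2(FPKM + 1) scale the chemokines CXCL2 (-2.48), CXCL8 (-2.35) and CXCL1 (-2.06) and the NF-kappaB regulator NFKBIZ (-2.03) followed. CCL20, CXCL3 and NFKB1 were the others called lower. By the ratio of means CCL20 fell 5.02-fold, more than CXCL1 (4.19) and NFKBIZ (4.30). Of the called genes in this list, SAA2 with quantile normalization (0.97) and NFKB1 in several settings (down to -0.86) were under the fold minimum. CXCL1, CXCL2 and CXCL3, and SAA1 and SAA2, are near copies of each other, so their separate values are uncertain.

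**Figure D5:**
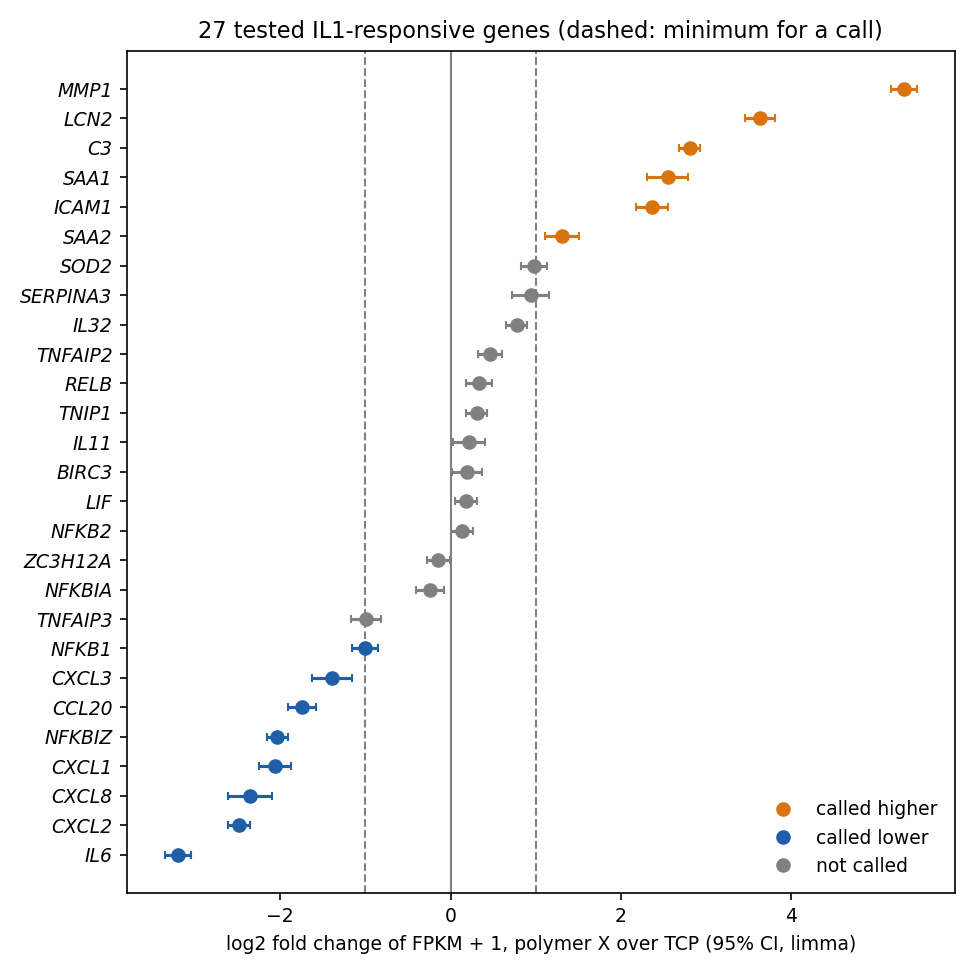
Log2 fold change of FPKM + 1, polymer X over TCP (horizontal axis), of the 27 tested genes of the IL1-responsive list, with 95% confidence intervals from limma over 2 libraries per group and dashed lines at the fold minimum of 1. The 6 genes called higher run from SAA2 up to MMP1 (5.33), and the 8 called lower run from NFKB1 down to IL6 (-3.20).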

How the data were processed

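The authors deposited FPKM values for 50078 RefSeq transcripts of hg19. Per the file header these were made with HOMER by counting exon tags on either strand, dividing by transcript length and library tags and keeping 3 decimals. The labels list STAR 2.4.0, HOMER and DESeq in the submitters' processing notes, with no role or order. Counting ignored strand, although the library kit is directional per the labels.

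FPKM times transcript length gave whole tags for 100% of the low values used, within a tolerance of 0.1 tags, and so the depth of each library. A floor of 3 tags corresponds to an FPKM of 0.0334 to 0.0391 for a transcript of 2000 bases. Counting intervals (95%, exact binomial) take tags as independent.

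For 10500 symbols with more than 1 transcript, the one with the highest mean was taken. Genes that reached an FPKM of 1 in 2 or more libraries entered limma (version 3.58.1, R 4.3.3) as log2(FPKM + 1), with trended variance, without a replicate block, and with Benjamini-Hochberg adjustment. With 2 libraries per group, an exact permutation test of a single gene cannot give a p under 0.333. The procedure was tested on simulated data. Each replicate counted as a library. Replicates differed by more than sampling noise (mean chi-square per gene 5.43 on TCP and 6.41 on polymer X), which does not show whether they were separate cultures.

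Named genes are the 10 genes, up to 5 called genes per direction in each list, receptors or ligands with an FPKM of at least 1 in a library, and the 2 tested genes nearest to each tested gene in centred log2(FPKM + 1). Any other gene was picked after its values were seen. The members and lists were chosen with earlier results of these data known. Alternatives were a pseudocount of 0.1, quantile normalization, no filter, summed transcripts, a minimum mean FPKM of 5, a common median, no trend, a replicate block, no fold minimum and each library left out in turn.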

Additional observations from a re-analysis of the deposited data

How the results depend on the processing

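Over 103 values of the 9 tested genes under the alternatives, 100 kept their direction and side of the threshold, and 3 fell short of it: IL1R1 with quantile normalization, and CSF2 with no filter and without polymer X replicate 2. Of 314 values of other list genes whose log2 fold change or call the report gives, 306 kept both and 8 fell short, and none reversed in either set; the keratins and the genes nearest by distance were not among them. The number of the 10 genes called lower was 1 with no filter, and ran from 1 to 2 as each library was left out, where the lone library of a group is assumed to vary like the other group. With a mean FPKM of at least 5, 3 of the 10 genes were called higher and 1 lower, and of 8166 genes 702 were higher and 960 lower; IL1RN, IL33, IL1R1, IL1RAP and CSF2 are not tested there, which lowers these counts. The share of all calls that were higher was then 42.2%, against 53.2% as reported. With no fold minimum, 4477 genes were higher and 5212 lower. A replicate block gave 1285 genes called higher and 1131 called lower, with 6 and 2 of the 10 genes, as without it. In the labels, same-numbered libraries share only a number. Their deviations had a correlation of 0.0927 across genes, which does not show whether they shared a day or a preparation. IL1RAP, called higher only with no fold minimum, had an adjusted p above 0.05 with summed transcripts (limma, Benjamini-Hochberg). Depth limits the precision of the lowest values, such as CSF3 with at most 4 tags and CASP1 with at most 2.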

Other observations

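By distance between centred log2(FPKM + 1) over the 4 libraries, the tested genes nearest to IL1A were CTSD (0.0193) and STARD3 (0.0393). CTSD had an FPKM of 109.6 and 108 on TCP and 444 and 440.5 on polymer X. Those nearest to IL1B were IFITM10 (0.0313) and FTCD (0.0440). BTN3A2 (0.0187) and C1QTNF6 (0.0244) lay nearest to IL1RN, and SIGLEC15 (0.0499) and SNX33 (0.0613) nearest to IL33. For the receptor chains these were TMEM47 (0.0309) and TMOD1 (0.0321) beside IL1R1, and KANK1 (0.0173) and FGF18 (0.0198) beside IL1RAP. LEMD1 (0.0194) and SDK2 (0.0194) lay nearest to CSF1. LEMD1 had an FPKM of 0 and 0 on TCP and 1.19 and 1.03 on polymer X, far under CSF1. IFITM10, FTCD, SIGLEC15, LEMD1 and SDK2 were under an FPKM of 1 in both TCP libraries. They passed the filter through polymer X only. The genes that were lower on polymer X had more distant neighbours, EEF1E1 (0.0719) and TRAIP (0.0925) for IL18, and C12orf45 (0.170) and MED27 (0.203) for CSF2. IL18 and CSF2 also had the largest SE of the 9 tested genes (0.10 and 0.19), and the distance includes the spread between replicates. The distance is on the log2(FPKM + 1) scale, which understates the changes of low genes, so near genes can differ in fold.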
